A study of Mus musculus and synthetic construct with 3 samples.

Results

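The contractile actin and myosin genes examined here are the 10 genes with the symbols Acta2, Actg2, Tagln, Myh11, Myl9, Myl6, Mylk, Cnn1, Tpm1 and Tpm2. They were picked by symbol out of 32285 genes in the count table, with earlier results of these data known. Spatial transcriptomes were taken with Seq-Scope, in which a tissue section lies on an array of very small barcoded clusters and each captured transcript, counted once by its unique molecular identifier (UMI), keeps its position. The tissue was suprarenal abdominal aorta from 3 mice with abdominal aortic aneurysm (AAA) and 3 control mice. All were male Apoe-/- mice, which lack apolipoprotein E, on a normal diet, with an age of 16 weeks in the labels; the study's methods give another age at implantation and another dose unit. For 4 weeks a minipump under the skin delivered angiotensin II (AngII, given as 1000 ng/ml) to the AAA mice and saline to the control mice. The AAA mice were those of the AngII group in which an aneurysm formed, so AngII and the aneurysm cannot be told apart. Aortas of an AAA and a control mouse were embedded together, and 20 sections of 10 µm, 10 per condition, were placed on the array.

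Vascular smooth muscle shortens when myosin filaments pull on actin filaments. Calcium-bound calmodulin activates myosin light chain kinase, which phosphorylates the regulatory light chain and switches the myosin motor on. Smooth muscle cells of the arterial media hold these proteins in large amounts, and the loss of them is a common measure of a change away from the contractile state. Among the members, Acta2 and Actg2 encode the vascular and the enteric smooth muscle actin. Myh11 encodes the smooth muscle myosin heavy chain, Myl9 the regulatory light chain, Myl6 an essential light chain that many other cell types also make, and Mylk the light chain kinase. Tagln (transgelin) and Cnn1 (calponin) encode actin-binding proteins, and Tpm1 and Tpm2 encode tropomyosins, which lie along the actin filament.

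Many contractile genes are regulated by serum response factor with its partner myocardin through a short element called the CArG box. Promoter sequences were therefore read from RefSeq (GRCm38.p6), as the 300 bases around each gene start. Of the 10 members, 7 had an entry, with 8 promoters in all, since Myl6 had 2 starts. Actg2, Tagln and Myh11 had none. A CArG box, searched on both strands, was found in promoters of 2 of these 7 genes, Myl9 and Myl6, and in 1.63% of all promoters of this length (535 of 32851). The box began 161 bases before the Myl9 start and 50 bases before a Myl6 start. The promoters with a box and that of Acta2, the member with the most UMIs, are shown 5′ to 3′ on the strand of the gene, with the CArG box in capitals. The search took only CC, a run of A or T and GG, 10 bases in all, with no other letter allowed. The Acta2 window held no such exact match. It does hold ccctatatgg and ccttgtttgg, which each differ from the pattern in a single letter and are not marked. Whether any of these stretches acts as a CArG box was not tested.
Myl9, chr2:156775214-156775513, plus strand: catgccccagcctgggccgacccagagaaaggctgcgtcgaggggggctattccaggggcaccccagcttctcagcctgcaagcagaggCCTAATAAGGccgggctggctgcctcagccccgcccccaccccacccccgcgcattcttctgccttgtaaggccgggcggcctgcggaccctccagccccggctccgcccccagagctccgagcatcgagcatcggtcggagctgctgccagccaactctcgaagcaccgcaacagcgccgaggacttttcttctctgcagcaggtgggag
Myl6, chr10:128492960-128493259, minus strand: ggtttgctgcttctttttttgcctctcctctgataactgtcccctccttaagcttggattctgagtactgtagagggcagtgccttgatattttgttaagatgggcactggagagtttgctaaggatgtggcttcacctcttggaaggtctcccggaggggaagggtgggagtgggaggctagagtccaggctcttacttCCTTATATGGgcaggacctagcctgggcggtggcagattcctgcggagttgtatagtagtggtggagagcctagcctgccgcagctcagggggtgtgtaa
Acta2, chr19:34255324-34255623, minus strand: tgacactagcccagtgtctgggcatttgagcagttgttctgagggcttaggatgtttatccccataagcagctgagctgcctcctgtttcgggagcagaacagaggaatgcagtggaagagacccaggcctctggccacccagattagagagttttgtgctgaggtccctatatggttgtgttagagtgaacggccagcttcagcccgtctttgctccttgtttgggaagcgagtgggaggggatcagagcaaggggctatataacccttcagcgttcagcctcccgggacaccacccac

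In the mm10 assembly (GRCm38, with gene models of GENCODE) the members lie on 7 chromosomes. Acta2 spans chr19:34241090-34255590 and Actg2 chr6:83512905-83536265, both on the minus strand. Myh11 (chr16:14194535-14291372, minus) and Mylk (chr16:34745210-35002420, plus) share a chromosome, whereas the light chain genes lie apart, Myl9 at chr2:156775420-156781658 (plus) and Myl6 at chr10:128490860-128494145 (minus). Cnn1 (chr9:22099216-22109630, plus), Tagln (chr9:45929619-45936058, minus) and Tpm1 (chr9:67022590-67049406, minus) share chromosome 9, and Tpm2 lies at chr4:43514711-43523765 (minus). Tagln and Mylk overlap annotated genes on the other strand.

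Reads of the aorta were thin, which sets the precision of all that follows. Barcodes were pooled into hexagons with 12-µm sides, each a small region that may hold several cells, and the 4858 hexagons with at least 75 genes were kept. A kept hexagon held 122 ± 46.9 exonic UMIs (SD over hexagons). Kept hexagons numbered 264, 117 and 95 in control mice 1 to 3, which gave 32973, 12742 and 9454 UMIs. In AAA mice 1 to 3 they numbered 2596, 919 and 867, which gave 330439, 111576 and 94812 UMIs. A gene's levels in the smaller control libraries therefore often rest on few UMIs, and 1 section of control mouse 3 had only 7 kept hexagons. The mouse was the replicate throughout, because sections of a mouse are not independent. Levels are exonic UMIs per 10000 exonic UMIs, given as mean ± SD over 3 mice, in the order mouse 1, 2 and 3. They are compared between samples and not between genes, since they are not corrected for gene length. Intervals of 95% cover counting error only.

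The array carried free RNA, and the members were part of it. In the 94361 hexagons between the sections, where 3.8 to 5.67 UMIs were found per hexagon by region, the 10 genes together made up 184 of 10000 UMIs (166 to 190 by region). In the kept hexagons of the aorta the sum was 271, 295 and 354 per 10000 in control mice and 118, 103 and 159 in AAA mice. The level between sections was taken with no minimum of genes, unlike that of the kept hexagons. The kept hexagons of control mice thus lay above, and those of AAA mice below, the composition between sections. With no minimum for the sections either, the sum was 241, 190.0 and 255 in control mice and 137, 134 and 156 in AAA mice. Control mouse 2 then stood beside 189.9 between the sections of its pair. The array between sections had 61.7 per 10000 for Acta2, 31.0 for Tagln, 30.5 for Myl6, 26.3 for Myl9 and 4.68 for Actg2. Kept hexagons of all 3 AAA mice lay below this level for Acta2, Tagln, Myl6 and Myl9. Those of all 3 control mice lay above it. With no minimum, control mouse 2 had 28.6 for Myl6, below this level, and 31.5 for Tagln, close to it. Albumin and 7 other liver genes, which aorta should lack, stood at 169 to 243 per 10000 in control mice and 192 to 217 in AAA mice, beside 230.0 between sections. The part of this background in the member levels was not tested.

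The first comparison asks whether each gene differed between saline-treated and AAA aorta, over all kept hexagons. It was tested with edgeR's quasi-likelihood test on UMIs summed per mouse, with Benjamini-Hochberg adjustment over the 1196 genes tested. All but Actg2, that is 9 of the 10 members, passed an adjusted p of 0.05 with the lower level in AAA, where 4.6% of all tested genes were called lower and 2.68% higher. The median log2 fold change (AAA minus control) was −1.26 over the 10 members and 0.00 over all tested genes. For the same 9 members every AAA mouse lay below every control mouse, as it did for 10.5% of all tested genes. Of these members, Myh11 passed the filter on low counts through the control mice alone. In bulk sums of this kind, fewer smooth muscle cells and less RNA per cell cannot be told apart.

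Smooth muscle markers that are not members were lower in sum in the same samples. Of the 15 markers used here, 9 were tested and 5, namely Sost, Csrp2, Synpo2, Rgs5 and Cald1, were called lower in AAA by edgeR. Csrp1 and Des were tested and not called. Synm, Pcp4l1 and Notch3, on few UMIs, had higher means in AAA. The 15 markers together made up 59.1 to 80.4 per 10000 in control mice and 22.7 to 34.3 in AAA mice. Markers of collagen-making fibroblasts stood at 40.2 to 51.8 in control mice and 83.1 to 123 in AAA mice, and those of macrophages at 21.2 to 31.4 and 61.6 to 73.2. Both of these lists were higher in every AAA mouse. Adipocyte markers spanned 51.8 to 110.4 in control mice and 71.6 to 103 in AAA mice, and hemoglobin and other erythroid genes 6.35 to 157 and 11.0 to 14.4. The part of these cell types in the member levels was not tested beyond the marker classes described further on.

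Acta2, the vascular smooth muscle actin, was the member with the most UMIs. Its level was 105, 98.9 and 139 per 10000 in control mice and 38.9, 32.7 and 57.6 in AAA mice. The groups did not overlap, with means of 114 ± 21.4 and 43.1 ± 12.9. The log2 fold change was −1.39 (SE 0.18, edgeR adjusted p = 1.66e-07). AAA mouse 3 had the highest level of its group, still well under the lowest control mouse.

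Actg2, the enteric smooth muscle actin, was the member not called. Its level was 3.03, 1.57 and 7.40 per 10000 in control mice and 2.94, 2.96 and 2.74 in AAA mice. The control values rest on 10, 2 and 7 UMIs and enclose all AAA values. The log2 fold change of −0.26 (SE 0.41) was not called (edgeR adjusted p = 0.817), and it turned to 0.21 without control mouse 3. The RNA between the sections held 4.48 to 4.84 per 10000 by region, more than 5 of the 6 mice, so aortic expression of Actg2 could not be separated from background at this depth. Acta2 and Actg2 also share most of their coding sequence, and how reads that match both were counted is not given in the sources used here, so the split between them is uncertain.

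Myh11, the smooth muscle myosin heavy chain and among the most specific markers of the cell type, had the steepest fitted change. Its level was 4.55, 3.14 and 6.35 per 10000 in control mice and 1.27, 1.43 and 1.05 in AAA mice, resting on 15, 4 and 6 UMIs and on 42, 16 and 10 UMIs. No AAA mouse reached a control mouse. The log2 fold change was −1.83 (SE 0.41, edgeR adjusted p = 0.00190). Its difference from the other members was not tested. Myh11 passed the filter on low counts through the control mice alone, as no AAA mouse reached the level the filter requires. Its call, its lack of overlap and its rank among the members are therefore description only.

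The light chains and the kinase fell as well. Myl9, the regulatory light chain that the kinase phosphorylates, had 44.0, 50.2 and 57.1 per 10000 in control mice and 17.6, 16.1 and 25 in AAA mice. Its log2 fold change was −1.34 (SE 0.19, edgeR adjusted p = 1.39e-06), close to that of Acta2. Myl6, the essential light chain, had 37.0, 44.7 and 45.5 in control mice and 20.9, 21.2 and 23.3 in AAA mice. Of the 9 members called, Myl6 had the smallest change, at −0.93 on the log2 scale (SE 0.19, edgeR adjusted p = 0.000508). Mylk, the kinase, had 9.10, 8.63 and 10.6 in control mice and 3.75, 2.69 and 4.01 in AAA mice. Its log2 fold change was −1.39 (SE 0.29, edgeR adjusted p = 0.000664), with no overlap between the groups. The calls of Mylk, Myh11 and Tpm2 were lost without control mouse 1, which holds most control UMIs, with edgeR adjusted p = 0.151, 0.224 and 0.0800.

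The actin-binding proteins and tropomyosins followed. Tagln, which binds along actin filaments, had 37.0, 45.5 and 51.8 per 10000 in control mice and 18.5, 12.7 and 27.5 in AAA mice. Its log2 fold change was −1.16 (SE 0.21, edgeR adjusted p = 0.000126), and its spread over AAA mice was wide, at 19.6 ± 7.46. Cnn1, which inhibits the myosin motor on actin, was tight in both groups, with 10.9, 12.6 and 12.7 in control mice and 4.81, 4.21 and 4.43 in AAA mice. The log2 fold change of Cnn1 was −1.36 (SE 0.26, edgeR adjusted p = 0.000191). Tpm1 had 6.37, 12.6 and 10.6 in control mice and 3.81, 3.32 and 4.64 in AAA mice, with a log2 fold change of −1.17 (SE 0.30, edgeR adjusted p = 0.00634), a call that was lost without control mouse 2 (edgeR adjusted p = 0.214). Tpm2 had 14.0, 17.3 and 13.8 in control mice and 5.72, 6.00 and 8.44 in AAA mice, with a log2 fold change of −1.18 (SE 0.24, edgeR adjusted p = 0.000664). For both tropomyosins the lowest control mouse lay above the highest AAA mouse. With UMIs over whole genes in place of exons, Myl6 and Cnn1 lost their calls and 7 members were called lower, beside 0.478% of the 10036 genes tested there. That setting also kept more hexagons, 23585 in place of 4858.

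**Figure D1:**
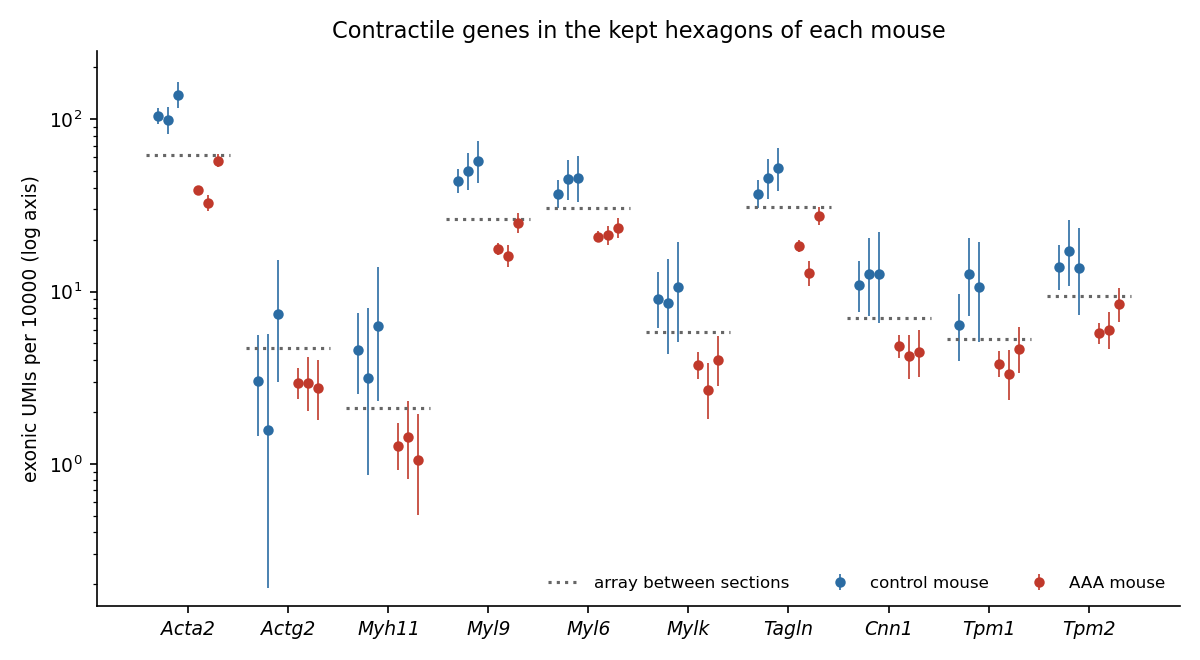
Exonic UMIs per 10000 (log axis) of each of the 10 contractile genes in the kept hexagons of each mouse, with 1 point per mouse colored by condition and bars for the 95% Poisson interval of counting. For every gene but Actg2 the 3 control points lie above the 3 AAA points, as for Acta2 with 98.9 to 139 against 32.7 to 57.6.

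Whether the members kept their proportions to each other was tested on each gene's share of the 10-gene sum. Acta2 made up 37.1 ± 3.13% of the sum in control mice and 33.6 ± 2.38% in AAA mice, and Myl6 13.9 ± 1.18% and 17.6 ± 2.89%. Both overlapped between the groups, as did Tagln with 14.6 ± 0.883% and 15.1 ± 2.55%. Only the share of Myl9 did not overlap, at 16.5 ± 0.490% in control and 15.4 ± 0.440% in AAA mice (exact two-sided permutation p = 0.1, the smallest possible with 3 against 3 mice). After adjustment over the 10 members no share passed, the lowest adjusted p of these exact permutation tests being 0.5, so no change in proportion was detectable with this number of mice.

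The 10-gene sum varied among sections of the same condition. In the 10 control sections it ran from 221 to 468 per 10000 with a median of 321, and in the 10 AAA sections from 99.99 to 240.3 with a median of 125. Of the 10 control sections, 8 lay above every AAA section, and the section of AAA mouse 3 with the highest sum overlapped the lowest control sections. Myl6 was the only member for which all 10 control sections lay above all AAA sections, at 35.3 to 61.4 against 12.6 to 24.7 per 10000. For Tpm2 this held for 9 control sections, for Acta2, Cnn1, Myh11 and Myl9 for 7, for Tpm1 for 6, for Mylk for 4, for Actg2 for 3 and for Tagln for 2. For Tagln the overlap came with that same AAA section, which had 54.0 per 10000 where the control sections had 27.4 to 57.6. Actg2, Cnn1, Myh11, Mylk and Tpm1, all with few UMIs, were each at 0 in at least 1 control section.

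**Figure D2:**
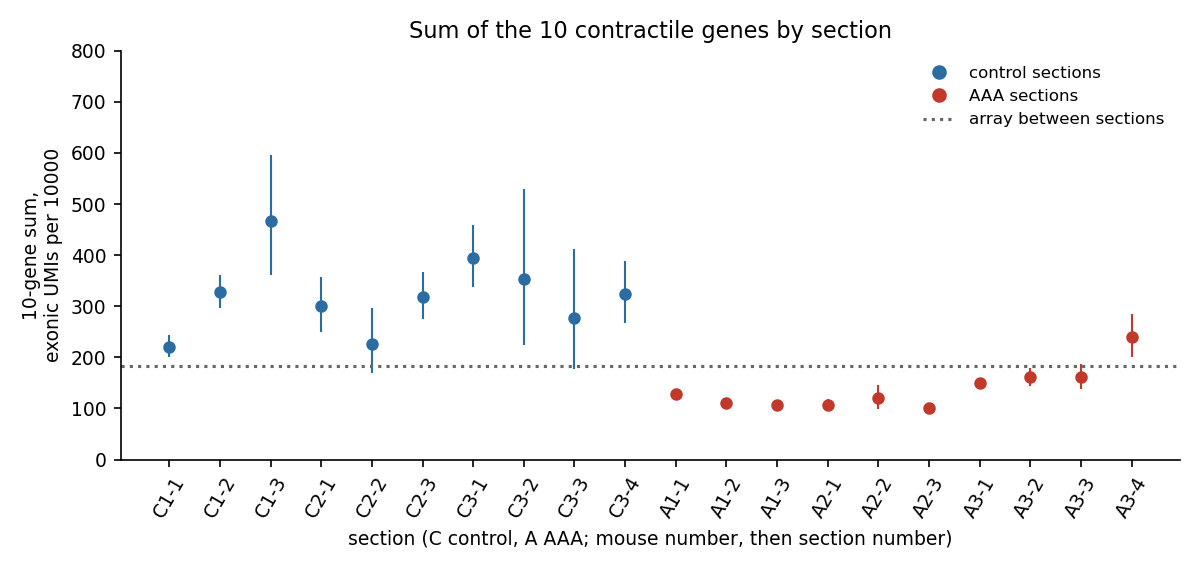
Sum of the 10 contractile genes in exonic UMIs per 10000 for each of the 20 sections, control sections (C) and AAA sections (A) named by mouse and section number, with bars for the 95% Poisson interval of counting. The control sections span 221 to 468 and the AAA sections 99.99 to 240.3, and the highest AAA section, of mouse 3, stands apart from the other 9.

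The same difference was then followed down to single hexagons. Each hexagon was thinned to 75 UMIs, so that shares were taken at one depth. Since a kept hexagon has at least 75 genes, none was left out as too shallow. On this scale 22.2, 15.6 and 11.4% of kept hexagons in control mice and 45.5, 47.4 and 36.6% in AAA mice had no UMI of any member, on average 16.4 ± 5.45% and 43.2 ± 5.72% (exact two-sided permutation p = 0.1, the smallest possible). Hexagons with 5 or more member UMIs made up 11.7 ± 2.28% in control and 1.58 ± 1.15% in AAA mice (exact permutation p = 0.1, and 0.1 for both shares when adjusted together). As observed, without thinning, the shares were 9.88% and 29.8% for no UMI, and 25.4% and 5.11% for 5 or more. No mouse of a condition overlapped the other condition in either share after thinning. With UMIs over whole genes, also thinned, the shares were much closer and the mice overlapped. They were 56.0% and 66.3% for no UMI (exact permutation p = 0.2) and 0.521% and 0.130% for 5 or more (exact permutation p = 0.3). That setting kept 23585 hexagons, those with at least 75 genes by whole-gene counts, and drew from intronic UMIs too. It is therefore not the same set of hexagons counted another way. By gene, Acta2 was found in 47.8 to 61.6% of thinned hexagons of control mice and 21.7 to 33.0% of the AAA mice, and Tagln in 24.3 to 32.7% and 9.16 to 17.8%. Since free RNA also carries these genes, a UMI in a hexagon does not by itself mean that a cell there expressed the gene.

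Hexagons rich in contractile transcripts were present in AAA aorta, but at a lower share. In the AAA mice 11.3, 7.62 and 20.9% of hexagons reached the median of the control hexagons, at which the 10 genes took 2.7% of a hexagon's UMIs. At 6% or more stood 21, 9 and 13 hexagons of the control mice, or 7.95, 7.69 and 13.7% of those kept, and 30, 2 and 17 hexagons of the AAA mice, or 1.16, 0.218 and 1.96%. AAA mouse 2 thus had almost none. The tenth of hexagons with the most member UMIs held 27.2 to 29.3% of all member UMIs in control mice and 31.0 to 35.9% in AAA mice without thinning, a share that also grows where most hexagons hold few member UMIs. Hexagons at or above the control median also touched hexagons with a higher mean share of member UMIs. Their neighbors carried on average 3.63, 3.07 and 3.66% member UMIs in control mice, against 2.15, 2.81 and 3.20% beside the other hexagons, and 2.50, 1.64 and 2.61% against 1.06, 1.01 and 1.34% in AAA mice. The neighbors of high hexagons had the higher mean in each of the 6 mice, by little in control mice 2 and 3. In the AAA mice this mean stayed below the 2.7% of the control median. The differences were not tested.

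**Figure D3:**
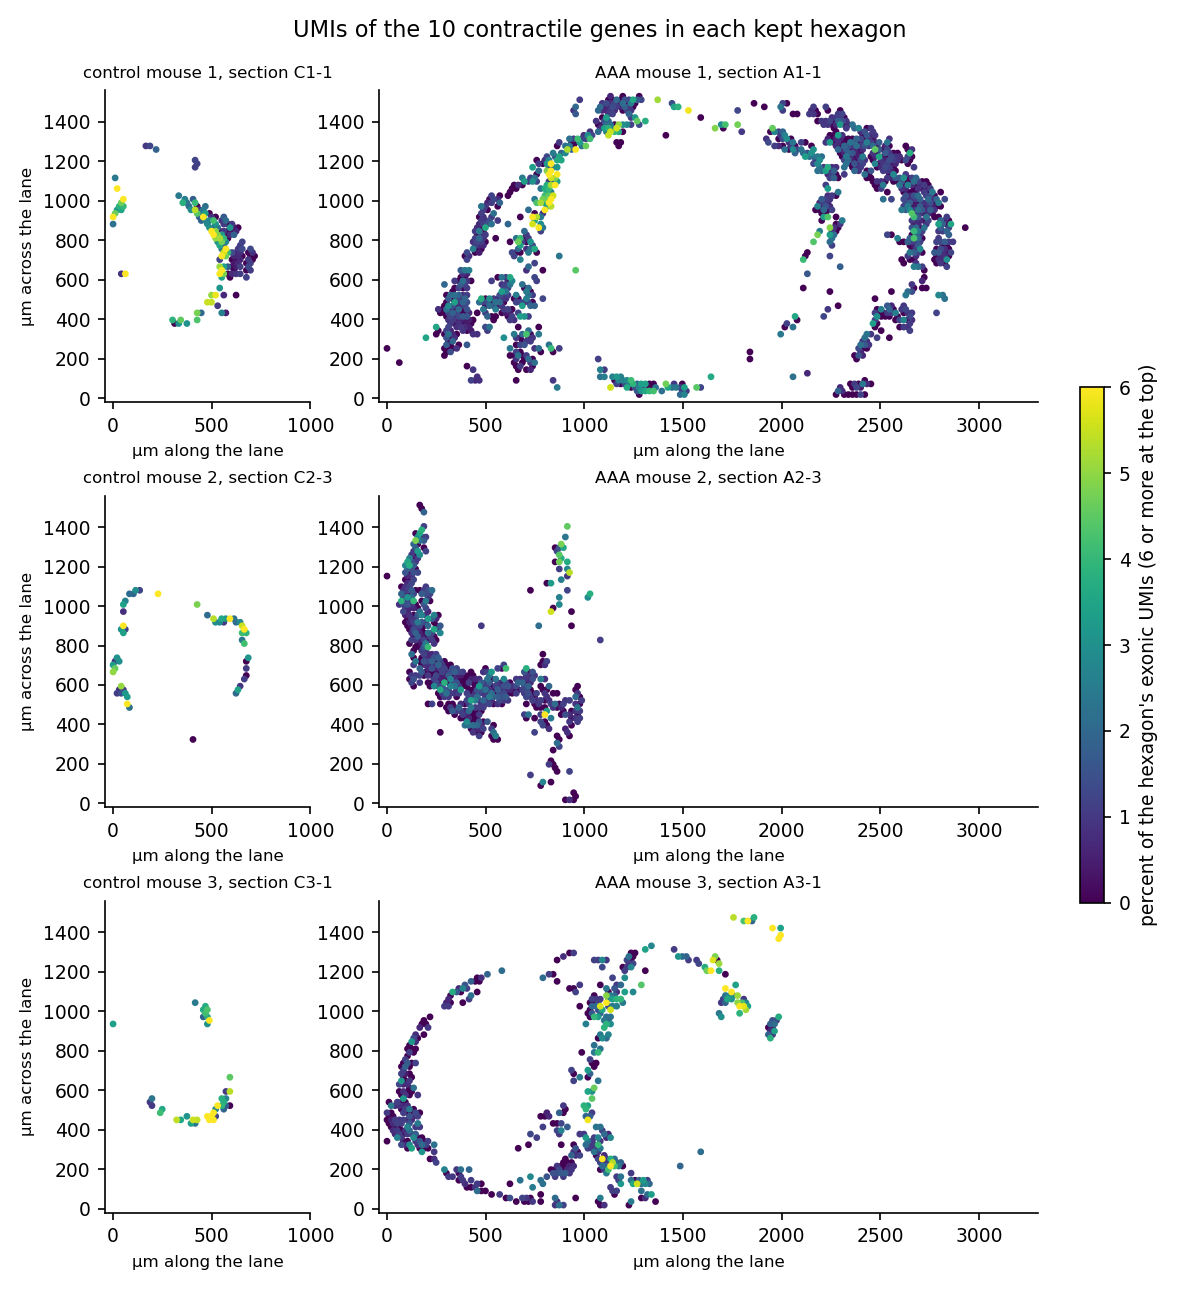
Maps of a section of each mouse, each dot a kept hexagon at its place along and across the lane in µm, colored by the percent of its exonic UMIs that came from the 10 contractile genes, with 6 or more at the top of the scale. Control sections are small with many bright hexagons, and AAA sections are large with few, as in AAA mouse 2, where 0.218% of hexagons reached 6%.

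Hexagons were next chosen by smooth muscle markers that are not members. Of the 9 such markers tested over all kept hexagons, 5 were themselves called lower in AAA. The class therefore need not hold the same cells in both conditions. A hexagon counted as one with smooth muscle markers if it had 2 or more UMIs of them and more than of any other marker list. This gave 37, 20 and 18 hexagons in control mice and 74, 12 and 35 in AAA mice, that is 14.0 to 18.9% of kept hexagons in control and 1.31 to 4.04% in AAA. Only 4 members passed the filter on low counts there. Acta2 had 158, 135 and 166 per 10000 in control mice and 90.1, 52.8 and 100.5 in AAA mice, and Myl9 had 56.2, 67.7 and 71.7 against 31.1, 6.60 and 51.6. For both genes every AAA mouse lay below every control mouse, as was true of 3 of the 19 genes tested (15.8%), these 2 among them. The log2 fold change was −0.81 for Acta2 (SE 0.25) and −0.93 for Myl9 (SE 0.30), both with an edgeR adjusted p of 0.0281 over only 19 genes tested. These 2 were the only genes called lower (10.5% of those tested), so this share is no comparison with other genes. Myl9 passed the filter through the control mice, as AAA mouse 1 and AAA mouse 2 did not reach the level it requires. The 6.60 of Myl9 in AAA mouse 2 was 1 UMI.

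Tagln was not called there. It had 45.4, 59.2 and 49.7 per 10000 in the smooth muscle marker hexagons of control mice and 63.2, 26.4 and 54.3 in those of the AAA mice, with AAA mice both above and below all control mice. Its log2 fold change was 0.14 (edgeR adjusted p = 0.740), and that of Myl6 was −0.39 (edgeR adjusted p = 0.507). The 10-gene sum was 367 ± 17.9 in control and 230 ± 91.5 in AAA mice, where the values were 272, 125 and 293, so the AAA mice varied widely. Both calls rested on few UMIs. DESeq2, or library size alone in place of TMM factors, called 0 of the 4 members, and so did leaving out AAA mouse 1 or any 1 of the control mice.

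Within AAA mice, the marker classes were compared with each other. Hexagons with collagen markers numbered 1138 and those with macrophage markers 453, beside 121 with smooth muscle markers, and 5 members passed the filter among 237 genes tested with the mouse as a term. All 5 were higher in smooth muscle marker hexagons than in collagen marker hexagons, by 1.98 on the log2 scale for Tagln, 1.73 for Tpm2, 1.29 for Acta2, 1.13 for Myl9 and 0.78 for Myl6. The edgeR adjusted p ran from 7.83e-11 for Tagln to 0.0304 for Myl6, and 8.44% of all tested genes were called higher. The same 5 were higher than in macrophage marker hexagons, by 1.47 for Tpm2, 1.26 for Tagln, 1.07 for Myl9, 1.01 for Acta2 and 0.87 for Myl6, with edgeR adjusted p from 8.34e-05 for Tagln to 0.0321 for Tpm2, where 6.33% of all tested genes were called higher. The classes were built without any member gene. AAA mouse 2, with 12 smooth muscle marker hexagons, went the other way for 2 members. Tpm2 had 0 per 10000 there, against 6.99 in its collagen and 5.56 in its macrophage marker hexagons. Myl9 had 6.60, from 1 UMI, against 14.0 and 11.1. Its Myl6, at 19.8, lay between the 18.5 and 21.6 of those classes, and its Acta2 and Tagln were higher than in both. Tpm2 passed the filter mainly through the smooth muscle marker hexagons of AAA mice 1 and 3. Without AAA mouse 1, which has most of these hexagons, 0 of the 4 members tested were called in either contrast.

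Between collagen and macrophage marker hexagons 1 member was called. Tagln was lower in collagen marker hexagons, with a log2 difference of −0.72 (edgeR adjusted p = 0.0128), a direction in which 6.33% of all tested genes were called, and 5.06% in the other. The call was lost without AAA mouse 1 (edgeR adjusted p = 0.528) and without AAA mouse 3 (edgeR adjusted p = 0.0895). Neither class was without member UMIs. The 10-gene sum in AAA mice was 230 ± 91.5 per 10000 in smooth muscle marker hexagons, 102 ± 15.9 in collagen, 123 ± 31.0 in macrophage and 95.5 ± 6.48 in adipocyte marker hexagons. All 3 of the non-muscle means lay below the 184 of the RNA between sections, which was taken with no minimum of genes. In control mice the collagen marker hexagons held 304 ± 41.1 and the adipocyte marker hexagons 231 ± 88.1, although only 42 and 83 hexagons stood behind them, and hexagons of no class held 327 ± 24.3.

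**Figure D4:**
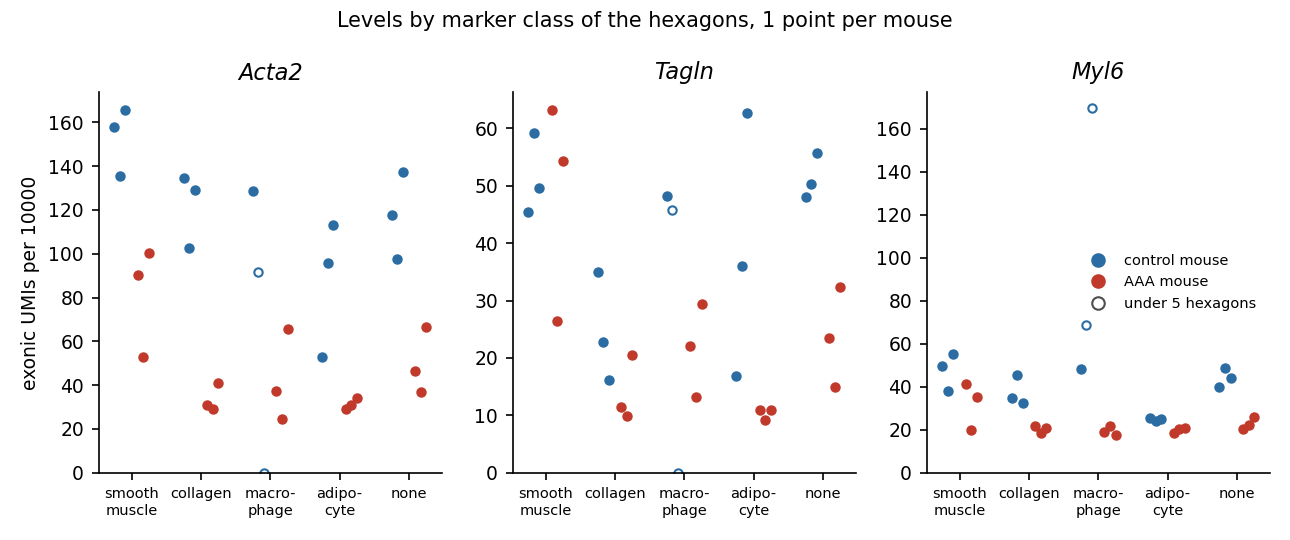
Levels of contractile genes in exonic UMIs per 10000 by the marker class of the hexagons, with 1 point per mouse and open points where under 5 hexagons stand behind a value. The panels show Acta2, Tagln and Myl6. For Acta2 the smooth muscle class holds 135 to 166 in control mice and 52.8 to 100.5 in AAA mice.

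Exonic UMIs could also be set against UMIs over whole genes, which include introns. For Acta2 99.2 ± 1.34% of the whole-gene UMIs were exonic in control and 99.1 ± 0.179% in AAA mice (exact permutation p = 1), and for Myl9 98.1 ± 1.48% and 99.2 ± 0.820% (exact permutation p = 0.5, and 1 for both when adjusted over the 2 genes). No difference was detectable in these genes, beside 47.0% exonic over all genes. The other members had under 50 whole-gene UMIs in at least 1 mouse and were not tested. Of Tpm1 UMIs pooled over mice, 67.1% were exonic in control (47 of 70, exact 95% interval 54.9 to 77.9) and 88.5% in AAA (207 of 234, 83.7 to 92.3). Mylk and Myh11 stood the other way round, with 71.8% exonic (59.9 to 81.9) in control and 53.6% (48.3 to 58.9) in AAA for Mylk, and 80.6% (62.5 to 92.5) and 58.6% (49.1 to 67.7) for Myh11. Mylk overlaps 3 annotated genes on the other strand, so part of its whole-gene UMIs may belong to them if strand was not kept.

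Other tissue lay on the same array, at the start of lane 2 and on lane 1, and the labels do not name it. Gut epithelium markers took 118 of 10000 UMIs in the piece on lane 2 and 121 on lane 1, against 34.0 to 44.4 in the aortic sections, so it is called gut-marker tissue here. Each piece is a single sample and no test was made. Over its kept hexagons the 10-gene sum was 218 per 10000 in 1751 hexagons on lane 2 and 82.8 in 7384 hexagons on lane 1. Hexagons with smooth muscle markers numbered 299 and 334, and in these the sum was 329 and 283, next to 365 and 263 in pooled control and AAA aorta.

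The make-up of that sum differed between aorta and gut-marker tissue. Actg2, the enteric actin, took 8.03 and 8.50% of the sum in smooth muscle marker hexagons of the pieces on lane 2 and lane 1, but 1.56% in control and 1.28% in AAA aorta. Acta2 was the reverse, at 22.4 and 23.5% against 42.1 and 33.8%. Of the UMIs of both actins, Actg2 gave 26.4% (exact 95% interval 23.3 to 29.7) and 26.6% (23.0 to 30.4) in the gut-marker pieces and 3.57% (1.17 to 8.14) and 3.65% (1.2 to 8.31) in control and AAA aorta. The intervals of both aortic conditions overlapped in this class, whereas over all kept hexagons the share was 3.05% (1.85 to 4.73) in control and 6.63% (5.66 to 7.71) in AAA aorta, next to 7.05% in the RNA between sections. By mouse it was 2.81, 1.56 and 5.07% in control mice and 7.01, 8.29 and 4.55% in AAA mice, which overlapped.

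Other members took other shares in the gut-marker tissue too. Cnn1 took 7.91 and 8.61% of the sum in the gut-marker pieces and 3.74 and 2.82% in control and AAA aorta. For Tpm1 the shares were 4.95 and 5.83% against 1.25 and 2.82%. The aortic shares rest on 12 and 11 UMIs for Cnn1 and on 4 and 11 for Tpm1. The AAA interval of Tpm1 (1.42 to 4.99) overlapped those of both gut-marker pieces (4.14 to 5.88 and 4.79 to 7.01). Over all kept hexagons, Tpm1 took 3.20% in control and 3.12% in AAA aorta as means over mice. Myh11 took 0.919 and 0.944% in the gut-marker pieces and 1.87% (0.689 to 4.02) and 1.28% (0.418 to 2.97) in control and AAA aorta, where only 6 and 5 UMIs stood behind it, so no difference was detectable at this depth. Tagln took 22.2 and 22.3% in the gut-marker pieces and 21.8% in AAA aorta, but 13.7% in control aorta. The AAA value depended on the setting, at 18.1% with 50 or more genes per hexagon and 16.4% over whole genes, where control aorta had 13.8 and 13.9%. In the per-mouse means that Tagln share was 14.1% in control and 20.9% in AAA smooth muscle marker hexagons.

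**Figure D5:**
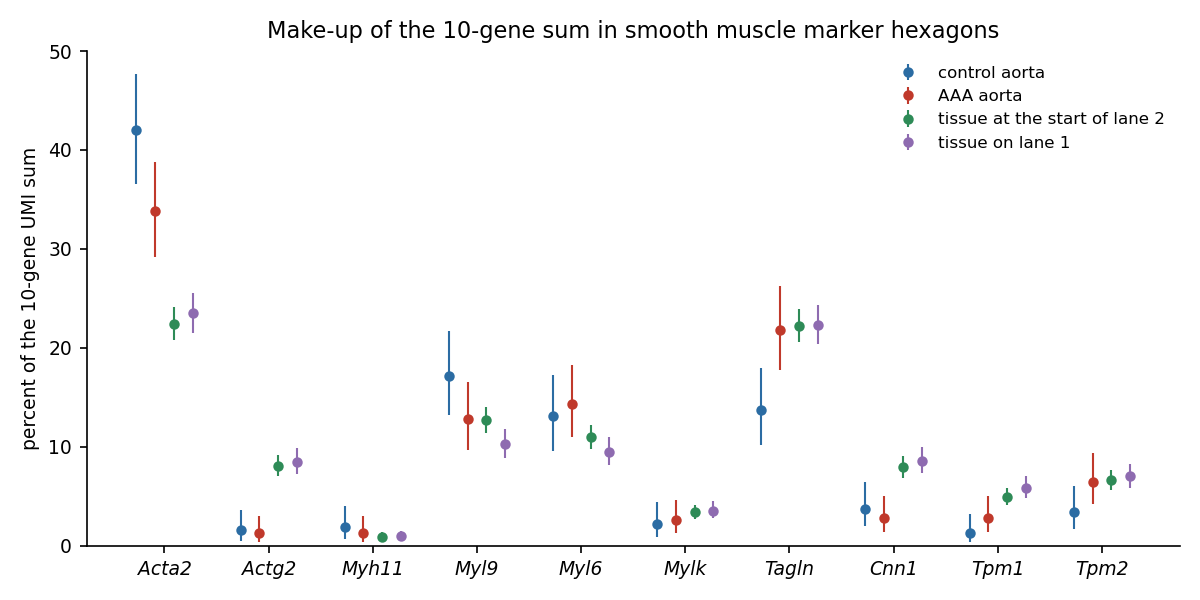
Percent of the 10-gene UMI sum given by each contractile gene in smooth muscle marker hexagons of control aorta, AAA aorta and the gut-marker tissue on lane 2 and lane 1, with bars for the exact 95% interval of counting. Acta2 takes 42.1% in control and 33.8% in AAA aorta but 22.4 and 23.5% in the gut-marker tissue, and Actg2 reaches 8.03 and 8.50% only in the gut-marker tissue.

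Genes around the members in the same machinery were described by fixed lists. Of 30 other contractile smooth muscle genes, 13 passed the filter in the comparison of AAA with control over all kept hexagons, 9 were lower and 0 higher, with a median log2 fold change of −1.38 beside 0.00 over all genes. Flna (filamin A, an actin cross-linker) changed by −1.27 (edgeR adjusted p = 8.37e-06), Csrp2 (a LIM protein of smooth muscle) by −1.68 (edgeR adjusted p = 1.06e-05) and Actn1 (alpha-actinin) by −1.12 (edgeR adjusted p = 0.00574). Synpo2, Tns1 (tensin, which links actin to integrins), Fhl1, Pdlim3, Cald1 (caldesmon) and Ppp1r12a, the targeting subunit of the myosin phosphatase that opposes Mylk, were the others called lower. Csrp1, with −0.77, missed the threshold (edgeR adjusted p = 0.0687). Of the 30 genes, 12 are also among the markers used to class hexagons, so the lists are not independent of each other. Of the 9 genes called lower, 6 are in the contractile list alone, namely Flna, Actn1, Tns1, Fhl1, Pdlim3 and Ppp1r12a.

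Few of the upstream genes were counted well enough to test. Of 16 genes of transcription and signalling, 3 passed the filter. Cald1, which stands in both lists, was the gene called lower, at −1.11 (edgeR adjusted p = 0.0422), and DESeq2 did not call it. Rhoa, at 0.05 (edgeR adjusted p = 0.974), and Rock1, at −0.65 (edgeR adjusted p = 0.463), were tested and not called. Gucy1a1, a subunit of the nitric oxide receptor, did not pass the filter. Of 15 striated muscle genes, among them Ttn, Tnnt2 and Myl1, 0 passed it, and their sum stood at 1.06 to 1.82 per 10000 in control and 0.908 to 1.79 in AAA mice.

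None of the tested non-muscle counterparts of the members was called. Of 11 such genes, 9 were tested and 0 passed by edgeR or by DESeq2, nor did any have an unadjusted p under 0.05 by either (0 genes), with a median log2 fold change of −0.10. Actb, the cytoplasmic beta actin, had 71.3 ± 8.50 per 10000 in control and 76.8 ± 4.58 in AAA mice, with a log2 fold change of 0.11 (SE 0.17, edgeR adjusted p = 0.818). For Actg1, the cytoplasmic gamma actin, it was −0.15 (SE 0.26), for Tagln2 −0.25 (SE 0.27) and for Myl12b 0.49 (SE 0.50), none of them called. In the same libraries Acta2 stood at −1.39 (SE 0.18).

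Across the 20 sections the members did not all follow each other equally. Spearman's rank correlation of each gene's level with the sum of the other 9 was 0.939 for Myl9, 0.928 for Acta2 and 0.850 for Tagln, then 0.684 for Myl6, 0.641 for Tpm2 and 0.573 for Myh11. It was 0.417 for Cnn1, 0.383 for Tpm1, 0.196 for Mylk and 0.142 for Actg2, in the main the members with fewer UMIs. Among 417 other genes with 200 or more UMIs, the patterns most like the 10-gene sum were those of Cpe (carboxypeptidase E, rank correlation 0.812), Flna (0.768), Csrp2 (0.701), Sod3 (extracellular superoxide dismutase, 0.669) and Clic4 (0.642). Cpe stood at 29.4 ± 8.46 per 10000 in control and 14.3 ± 3.58 in AAA mice. The sections share mice, libraries and the split between control and AAA, so these values are descriptions without a test.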

How the data were processed

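The deposited values were UMI counts per gene and spatial barcode, made by the authors with STARsolo 2.7.5c against mm10 and not normalized, with exonic counts and counts over whole genes as separate columns of 1 matrix. Exonic counts of lane 2 were used unless stated. Mitochondrial (mt) and Gm-named genes were left out, barcodes were pooled into hexagons with 12-µm sides, and hexagons with 75 or more genes were kept, following the study's methods. The labels list 2 RNA libraries of the same array, whose counts are pooled in the matrix and could not be compared, and no section per barcode. Therefore hexagons were assigned to sections and mice by fitting the study's section map to the tissue outlines. The fit used 27 outline edges and left a residual SD of 65.6 µm, against 1716 µm in the opposite order. Exonic counts kept 4858 hexagons in the sections, and counts over whole genes 23585. Both are far fewer than the study kept at the same gene minimum.

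UMIs were summed per mouse, with library sizes taken over all exonic UMIs of the kept hexagons. They were tested with edgeR 4.0.16 in R 4.3.3 (TMM factors, filterByExpr, quasi-likelihood test) at a Benjamini-Hochberg adjusted p under 0.05. Single values were tested with exact two-sided permutation tests over mice, for which 3 against 3 cannot go below p = 0.1. Alternatives included DESeq2 1.42.0, other scalings, filters, hexagon minimums and count columns, a block for the pair number, and each mouse left out. Leaving out sections with under 20 kept hexagons, adipocyte marker hexagons or erythroid marker hexagons was chosen after seeing the data. The edgeR script was tested on simulated data.

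The members, lists and tests were chosen with earlier results of these data known. Named genes are all 10 members, up to 4 genes of each list with the most UMIs and any of its genes that passed the test. The 5 genes of most similar pattern, Des and the smooth muscle markers with a higher mean in AAA are also named. The other tissue on the array entered no test.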

Additional observations from a re-analysis of the deposited data

Results flagged for a closer look

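Among 22 groups of 10 sections (10 members and their sum, in control and in AAA), 8 had a section that stood apart by the gap to its nearest neighbor past Dixon's 95% critical value. With sections of equal spread, chance would flag about 1 group in 20. The sections held 651 to 147645 UMIs, so their counting error differs and the chance rate is not known here. The groups are also not independent, since the sum holds the members. Section A3-4 of AAA mouse 3 was highest in 4 of them, with 101 UMIs per 10000 for Acta2, 42.8 for Myl9, 54.0 for Tagln and 240.3 for the 10-gene sum, which rests on 129 of 5369 UMIs (95% Poisson interval 201 to 285 per 10000). The nearest AAA section had a sum of 161. Section A3-3 of the same mouse was highest for Mylk at 9.97 per 10000 (11 UMIs), and section A3-2 for Tpm1 at 6.46 (13 UMIs). Section C3-2 of control mouse 3 was highest for Actg2 at 30.7 per 10000 and for Myl6 at 61.4, resting on 2 and 4 of only 651 UMIs. No explanation was tested.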

How the results depend on the processing

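Over all kept hexagons, 9 members were lower in AAA in the reported comparison and by DESeq2, by library size alone, with 50 or more genes per hexagon, with no minimum of genes, with the hemoglobin genes left out and in each of the 3 alternatives chosen after seeing the data. Counts over whole genes called 7 and a minimum of 100 genes called 8 of the 8 members tested. With no filter on low counts 0 were called, where the median over all genes itself moved to 1.33 (log2) and that over the members was −0.51. Leaving out 1 mouse at a time gave 6 to 9. Actg2 turned to 0.44 with no filter, 0.13 over whole genes and 0.21 without control mouse 3 (−0.34 to 0.21 over the mice left out). The number of all genes called lower was 55, against 35 by DESeq2, 5 with no filter, 28 at 100 genes, 85 with no minimum and 22 without control mouse 1. The causes were not tested.

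In smooth muscle marker hexagons, 2 members were called lower in the reported comparison, but 0 by DESeq2, by library size alone, with TMM factors computed without the members, with no filter, over whole genes, with 50 or more genes per hexagon and with 1 or more marker UMIs, and 1 with 100 or more genes. Leaving out 1 mouse gave 0 to 2. Myl6 turned to 0.029 with no filter, and Tagln to −0.32 over whole genes, −0.090 with 50 or more genes and −0.17 with 1 or more marker UMIs.

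Between marker classes of AAA mice, no filter gave 0 calls in all 3 contrasts. It turned Acta2 to −0.062, Myl9 to −0.20 and Myl6 to −0.54 in smooth muscle minus collagen, Myl6 to −0.073 in smooth muscle minus macrophage, and Acta2 to 0.13, Myl9 to 0.37 and Tpm2 to 0.14 in collagen minus macrophage. In that last contrast Myl6 stood at −0.0074 with 1 or more marker UMIs. Leaving out 1 AAA mouse gave 0 to 5 members called in each smooth muscle contrast (3 and 2 without mouse 3, 0 without mouse 1) and 0 to 1 in the other. There Myl9 ran from −0.19 to 0.24 (without AAA mouse 1) and Myl6 from −0.029 (without AAA mouse 3) to 0.18.

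The pairing was checked once. Deviations of same-numbered mice from their group means correlated at 0.05, 0.03 and 0.02, all under 0.1, although each mouse correlated best with its own number. With the pair number as a replicate block, 9 members were called over all kept hexagons (36 genes lower in all) and 1 in smooth muscle marker hexagons.

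With 9454 to 32973 UMIs in a control mouse, Actg2, Myh11 and Mylk rest on few UMIs, and differences in proportion between members were limited by the number of mice.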

Other observations

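Among markers of other cell types, those of endothelium stood at 2.35 to 3.34 UMIs per 10000 in the control mice and 4.39 to 5.80 in the AAA mice. Genes of enteric or other neurons stood at 3.14 to 3.64 in the control mice and 1.08 to 2.09 in the AAA mice. Neither range overlapped between the groups, though each list had only 1 gene with enough UMIs to test and 0 were called by edgeR or DESeq2, with 0 at an unadjusted p under 0.05. Lymphocyte markers overlapped, at 6.35 to 15.7 and 8.23 to 9.41. Gut epithelium markers stood at 34.0 to 44.4 in the control aorta, 39.1 to 44.1 in the AAA aorta and 59.0 in the array between sections.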
